A study of Rattus norvegicus with 13 samples.

Results

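Oxytocin and vasopressin were measured as mRNA, together with a receptor of each, in the whole hypothalamus of 13 rats. The genes are Oxt and Avp, which code for the peptides, Oxtr, the oxytocin receptor, and Avpr1a, the V1a vasopressin receptor. They were chosen by name, and each symbol matched 1 row among the 17366 of the deposited expression table. The 7 control rats ate standard chow with 0.30% fructose, and the other 6 ate a diet with 55% fructose. Both diets began on postnatal day 25. All rats were fasted overnight from day 79 and killed on day 80, 1 h after glucose (2 g per kg, into the peritoneum) or saline. The whole cohort held 31 rats given glucose and 29 given saline, but the labels do not tie either injection to a given rat among the 13. They name neither strain nor sex.

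Oxytocin and vasopressin are peptides of a few amino acids that the large, magnocellular neurons of the paraventricular and supraoptic nuclei send to the posterior pituitary, from where they reach the blood. Each gene codes for a precursor that holds the peptide and its carrier protein, a neurophysin. Vasopressin is best known for water retention by the kidney and oxytocin for milk ejection and labour, and both also act inside the brain on receptors that signal through Gq proteins and calcium. Vasopressin is made in the suprachiasmatic nucleus, the circadian clock of the hypothalamus, as well.

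The unit is FPKM, which divides the fragments of a gene by its transcript length and by the size of the library, so levels of different genes are given per length. Total FPKM per rat lay between 556902 and 608058 and did not differ between diets beyond the spread between rats (exact two-sided permutation p = 0.192), and 0 pairs of columns were identical. The number of reads behind each value is unknown. The lateral hypothalamic peptide Pmch, a marker of the labelled tissue, stood at 1345 FPKM or more in every rat. It does not stand for each hypothalamic region. Summed over 5 arcuate markers, FPKM ran from 6.65 to 10.2 on chow and from 5.43 to 25.4 on fructose. For 4 ventromedial markers the sums ran from 6.13 to 17.7 and from 4.7 to 27. The label holds whole hypothalamus, and other tissue is in the samples too. Markers of midbrain dopamine neurons had a level, the mean of log2(FPKM + 0.5) over 9 tested genes, of 1.91 ± 0.24 (SD, n = 7 chow rats) and, in the 6 fructose rats, of 4.18 ± 0.54. For the thalamus the level was 4.63 ± 0.49 and 3.34 ± 0.75 over 12 genes, and for blood 3.94 ± 0.46 and 5.63 ± 0.81 over 6 genes.

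Oxt and Avp are neighbours on chromosome 3, with 0 annotated genes between them in RefSeq, and they are read from opposite strands towards each other. The 250 bases before the start of each gene are shown, 5′ to 3′ on the strand of the gene, from RefSeq's promoter table for build GRCr8. Oxt and Avp moved together over the rats, as described further on, and any part of these bases in that was not tested. Capitals mark each match, on either strand, to AGGTCA (a nuclear receptor half-site), CACGTG (an E-box), TGANTCA (an AP-1 site) or CATAAA. These motifs were chosen with both sequences in view, and 0 of the matches overlap.
Oxt, chr3:138235504-138235753, plus strand: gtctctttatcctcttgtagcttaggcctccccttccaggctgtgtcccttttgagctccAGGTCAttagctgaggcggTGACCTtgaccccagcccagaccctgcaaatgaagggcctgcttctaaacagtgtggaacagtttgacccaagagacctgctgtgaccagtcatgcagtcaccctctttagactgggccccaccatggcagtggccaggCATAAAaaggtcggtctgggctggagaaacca
Avp, chr3:138248523-138248772, minus strand: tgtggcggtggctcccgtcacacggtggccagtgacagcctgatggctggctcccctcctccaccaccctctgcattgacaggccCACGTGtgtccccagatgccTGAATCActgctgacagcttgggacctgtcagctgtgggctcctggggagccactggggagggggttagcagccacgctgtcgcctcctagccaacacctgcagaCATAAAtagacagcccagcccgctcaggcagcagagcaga
Positions count back from the base before the gene's start, which is -1. AGGTCA was found 2 times before Oxt, from -190 to -185 on the strand of the gene and from -171 to -166 on the other, and 0 times before Avp. Of 33469 RefSeq promoters of this length, 14.1% held it. Before Avp, CACGTG lay from -165 to -160 (in 5.59% of all promoters) and TGANTCA from -145 to -139 (in 6.34%), and Oxt had neither. CATAAA lay from -32 to -27 before Oxt and from -40 to -35 before Avp, and 11.4% of promoters held it. The windows before Oxtr and Avpr1a held 0 of these motifs. A match is a run of letters only, and the data hold no measurement of binding.

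The mRNA of both peptides ranged over 2 orders of magnitude between rats of the same diet. On chow, Oxt stood at 8.97 FPKM in the lowest rat, 93.3 at the median and 1455 in the highest, a ratio of highest to lowest of 162. On fructose it stood at 2.04, 28.4 and 359 FPKM, a ratio of 176. Each diet held rats with abundant and rats with little oxytocin mRNA, and the diets overlapped.

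Avp had the same kind of range. It stood at 5.08 FPKM in the lowest chow rat, 84.9 at the median and 601 in the highest, a ratio of 118. On fructose the values were 0.451, 56 and 214 FPKM, a ratio of 475. Again the diets overlapped, though in part.

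**Figure D1:**
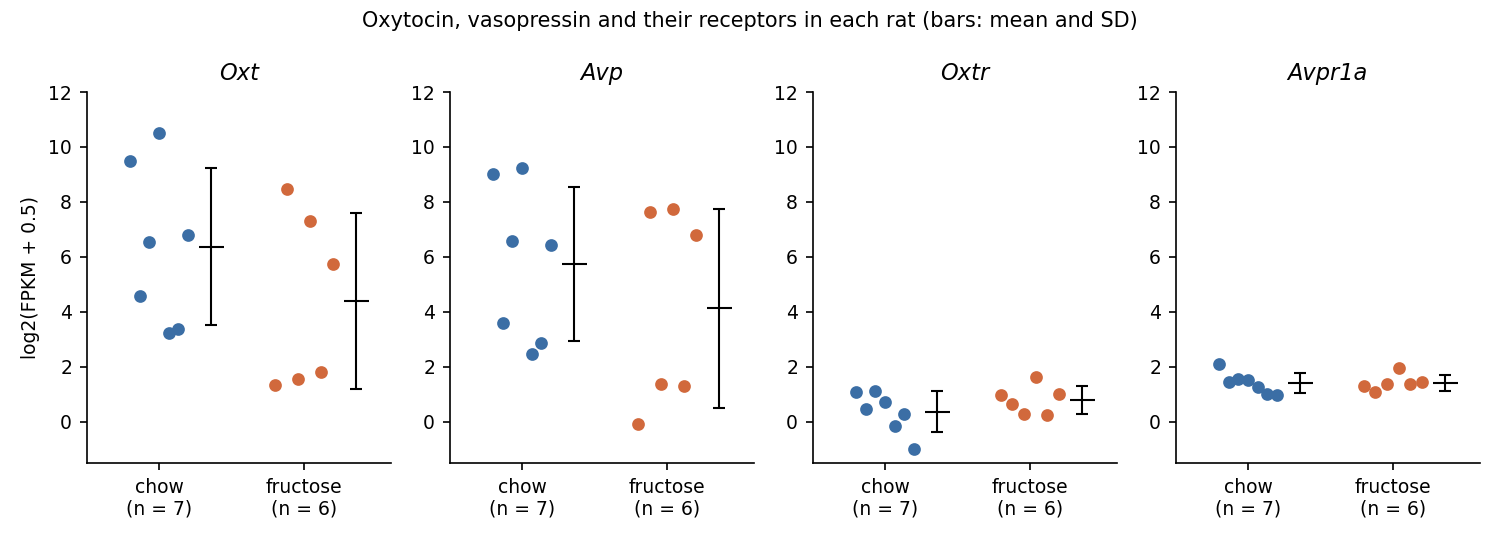
Level of each gene as log2(FPKM + 0.5), 1 point per rat, with 7 chow and 6 fructose rats, and bars for the mean and SD of each diet. Oxt and Avp span 7.26 and 6.75 log2 units on chow and 7.15 and 7.82 on fructose, whereas the receptors lie low in every rat.

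The same rats were low, and the same rats high, in both peptides. Chow replicate 4 had 1455 FPKM of Oxt and 601 of Avp, and chow replicate 1 had 718 and 512. Chow replicates 7 and 3 lay in the middle, with 110.3 and 93.3 FPKM of Oxt and 84.9 and 95.9 of Avp. In chow replicates 2, 6 and 5 Oxt was 23.6, 10.01 and 8.97 FPKM, and Avp was 11.5, 6.89 and 5.08. These 3 rats were the lowest of their diet for both genes.

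On fructose the rats fell into 2 sets of 3 with nothing between. Replicates 2, 4 and 6 had 359, 159 and 53.8 FPKM of Oxt and 199, 214 and 109.9 of Avp. Replicates 5, 3 and 1 had 3.05, 2.42 and 2.04 FPKM of Oxt and 1.99, 2.11 and 0.451 of Avp. In both genes they lay below the lowest chow rat (8.97 and 5.08 FPKM), while replicates 2, 4 and 6 lay within the chow range. Chow replicates 4 and 1 lay above every fructose rat in both. The gap between the sets was 3.94 log2 units for Oxt and 5.40 for Avp. On chow the widest gaps were 2.70 and 2.83 log2 units, and for Oxt and Avp they lay between different rats.

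Over the chow rats Oxt and Avp were correlated on the log2(FPKM + 0.5) scale (Pearson r = 0.99, exact permutation p = 3.97e-04, Benjamini-Hochberg adjusted p = 0.00476 over 12 relations, n = 7). Spearman's rho was 0.96 (exact permutation p = 0.00278, adjusted p = 0.0333). Without the 2 rats farthest from the median of Oxt, chow replicates 4 and 5, r was 0.99 over 5 rats. Leaving out each chow rat in turn left r at 0.99. The adjusted p was then over 0.05 without chow replicate 2 (exact permutation, 0.1), 5 (0.0833) or 6 (0.0667). On fructose r was 0.97, but it rests on the gap between the 2 sets, and within sets of 3 the relation cannot be tested, so it is given as a description. The difference of r between diets was -0.014 (exact two-sided permutation p = 0.399). On FPKM without a log the difference was -0.112 (exact permutation p = 0.00816).

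**Figure D2:**
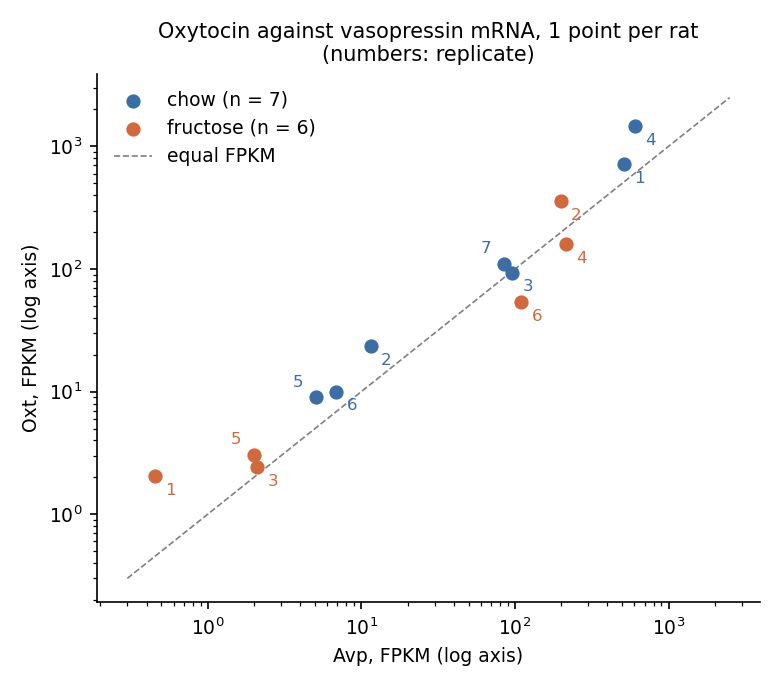
Oxt against Avp in FPKM on log axes, 1 point per rat with its replicate number, and a dashed line where both are equal. The points follow the line over the whole range, with fructose replicates 1, 3 and 5 at the bottom and chow replicates 1 and 4 at the top.

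The middle parts of both genes, which code for the neurophysins, are closely alike in sequence. The labels do not say how reads that fit either gene were assigned, and the split between Oxt and Avp is uncertain. The part of such shared reads in the correlation of Oxt with Avp was not tested. With that limit, Oxt was the higher of the pair in 10 of 13 rats. The mean log2 ratio of Oxt to Avp was 0.63 ± 0.43 (SD) over the 7 chow rats and 0.25 ± 0.88 over the 6 fructose rats. As a ratio of FPKM it ran from 0.973 in chow replicate 3 to 2.42 in chow replicate 4, and from 0.489 in fructose replicate 6 to 4.51 in fructose replicate 1. The log2 ratio differed between diets by -0.38, within the spread between rats (exact two-sided permutation p = 0.345).

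No diet difference of either peptide stood out from this range. For Oxt the log2 fold change, fructose minus chow, was -1.99 ± 1.44 (SE, limma adjusted p = 0.494), with a 95% confidence interval from -5.05 to 1.08. This interval runs from a level at 0.0303 of that on chow to 2.11 times it. For Avp the log2 fold change was -1.61 ± 1.53 (SE, limma adjusted p = 0.634), with an interval from -4.86 to 1.64, or 0.0344 to 3.13 times the chow level. The exact permutation p was 0.256 for Oxt and 0.378 for Avp. Large falls and moderate rises of these peptides with diet were both within what 7 and 6 rats of this spread allow.

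All 4 genes passed the filter on low values, a mean of at least 0.5 FPKM, and limma called 0 of them at an adjusted p under 0.05, against 3.94% of all 11837 genes tested (1.66% higher and 2.27% lower on fructose). At an unadjusted p under 0.05 limma and the exact permutation test each found 0 of 4, against 19.2% of all genes by limma. The diets overlapped for each of the 4, and did not for 1.61% of all genes tested.

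Within a diet, no gene tested varied more between rats than Avp, and Oxt came next. The SD within diet of log2(FPKM + 0.5) was 3.21 for Avp and 3.02 for Oxt, ranks 1 and 2 of 11837 genes. The median over all genes was 0.16 and the 99th percentile 0.70. Only 3 genes exceeded an SD of 2, and the third, Mir3567, with an SD of 2.59, was above 0 in a single rat. With a pseudocount of 0.1 Avp ranked 1 and Oxt 3, and leaving out any 1 rat left the ranks at 1 and 2. In bulk tissue, fewer cells of a type and less mRNA per cell cannot be told apart.

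**Figure D3:**
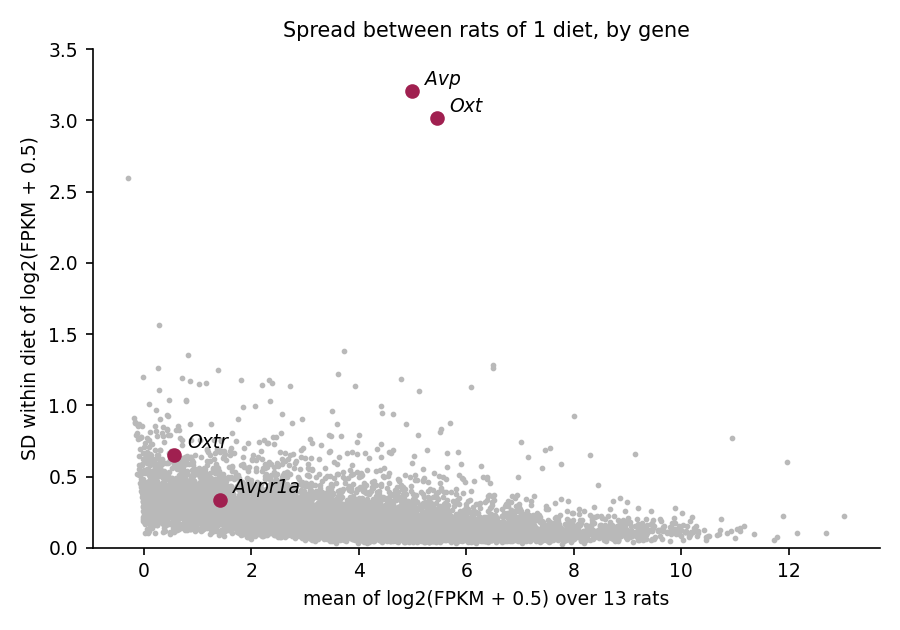
SD of log2(FPKM + 0.5) within diet against its mean over the 13 rats, with a grey point for each of 11837 tested genes and the 4 genes in dark. Avp at 3.21 and Oxt at 3.02 lie at the top, and Oxtr at 0.65 and Avpr1a at 0.34 lie at low levels on the left.

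The receptors were low, and steady only in comparison with the peptides. Oxtr stood at 0 FPKM in the lowest chow rat, 0.89 at the median and 1.69 in the highest, and on fructose at 0.681, 1.29 and 2.6 FPKM. The 0 belongs to chow replicate 7, and such a 0 may stand for an estimate that failed. That rat had 4 rows listed at 0 whose median was 1 FPKM or more, where the rats ranged from 0 to 5 such rows. The log2 fold change of Oxtr was 0.44 ± 0.32 (SE, limma adjusted p = 0.509, exact permutation p = 0.269, 95% confidence interval -0.25 to 1.13). Without chow replicate 7 it was 0.21.

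Avpr1a was the steadiest of the 4. It stood at 1.49, 2.25 and 3.76 FPKM in the lowest, median and highest chow rat and at 1.63, 2.1 and 3.36 on fructose. The log2 fold change was 0.01 ± 0.18 (SE, limma adjusted p = 0.985, exact permutation p = 0.961), with an interval from -0.36 to 0.39, that is 0.777 to 1.31 times the chow level. The sign turned with quantile normalization (-0.06). The SD within diet was 0.34 for Avpr1a and 0.65 for Oxtr, ranks 1437 and 168 of 11837 from the most variable. Both lay above the median of 0.16 over all genes tested.

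By mean log2 level the order was Oxt, Avp, Avpr1a and Oxtr in both diets. Avpr1a exceeded Oxtr in 13 of 13 rats, by 1.05 ± 0.51 log2 units on chow and 0.62 ± 0.39 on fructose (exact sign-flip permutation p = 0.0156 and 0.0312, the smallest possible, adjusted p = 0.0469 for each over 6 comparisons). Avp exceeded Avpr1a in 7 of 7 chow rats, by 4.32 ± 2.59 (exact permutation p = 0.0156, adjusted p = 0.0469). It did so in 3 of 6 on fructose, by 2.71 ± 3.54, which was within the spread (exact permutation p = 0.25, adjusted p = 0.3). Oxt and Avp differed beyond their spread on chow, with Oxt higher in 6 of 7 rats (exact permutation p = 0.0312, adjusted p = 0.0469). On fructose they did not, with Oxt higher in 4 of 6 (exact permutation p = 0.531, adjusted p = 0.531). Between diets their log2 ratio did not differ beyond the spread (exact permutation p = 0.345), and the split of shared reads is uncertain. The order behind these comparisons was read from the same values. In fructose replicate 1 the vasopressin mRNA, at 0.451 FPKM, lay below both receptors, at 1.49 for Oxtr and 1.95 for Avpr1a. The log2 ratio of Oxtr to Avpr1a did not differ between diets beyond the spread (0.43 higher on fructose, exact permutation p = 0.122).

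No relation of a receptor with a peptide passed the test within a diet. Oxtr had r = 0.37 with Oxt on chow (exact permutation p = 0.417, adjusted p = 0.501, rho = 0.43, exact permutation p = 0.354, adjusted p = 0.471), and Avpr1a had r = 0.62 with Avp (exact permutation p = 0.131, adjusted p = 0.264, rho = 0.64, exact permutation p = 0.139, adjusted p = 0.333). Without the 2 rats farthest from the median these were 0.23 and 0.46. Oxtr with Oxt rested on single rats, with r = 0.72 without chow replicate 7, whose Oxtr is listed at 0, and 0.21 without chow replicate 1. For Oxtr with Avp r was 0.38, and 0.80 and 0.22 without the same rats, none of them past the adjusted threshold. The receptors with each other had r = 0.78 on chow (exact permutation p = 0.0405, adjusted p = 0.162) and rho = 0.93 (exact permutation p = 0.00675, adjusted p = 0.0405), and r was 0.82 without the 2 farthest rats. On fructose the receptors had r = 0.68 (exact permutation p = 0.132, adjusted p = 0.264) and rho = 0.54 (exact permutation p = 0.297, adjusted p = 0.454), and r was 0.10 without the 2 farthest rats and -0.04 without fructose replicate 4, the rat highest in both. With both diets together and each gene centred on its diet mean, the receptors had r = 0.75 (permutation p = 0.00712, adjusted p = 0.0214 over 6 relations, n = 13). Of the 12 relations within a diet, Oxt with Avp on chow passed by Pearson's r, and that relation and the receptors on chow passed by rho.

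Genes with a like pattern were ranked by Pearson r over the 13 rats, each gene centred on its diet mean, among all genes tested. After each other, the genes most like Oxt and Avp were the same 4. Trh, the precursor of thyrotropin-releasing hormone, had r = 0.96 with Oxt and 0.95 with Avp. Dlx1, a homeobox factor of GABA neurons, had 0.95 and 0.98, Meis2, another homeobox factor, 0.95 and 0.94, and Sst, somatostatin, 0.94 and 0.95. Foxp2, a forkhead factor, was the most opposite, at -0.90 and -0.94, followed by Inhba for Oxt (-0.89) and Sema3d for Avp (-0.89). These are descriptions over shared libraries, and the median gene tested had a highest r of 0.91 with some other gene. The highest r of Oxt and Avp exceeded that of 97.6% of genes.

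The genes that went with the peptides did so over smaller ranges. Trh stood at 15.8, 37.9 and 119 FPKM in the lowest, median and highest chow rat and at 9.76, 29.98 and 66.3 on fructose. Dlx1 ran from 10.2 to 24.2 FPKM on chow and from 6.17 to 16.5 on fructose, and Foxp2 from 4.96 to 9.23 and from 4.4 to 8.36. In the fructose rats with little Oxt and Avp, replicates 1, 3 and 5, Dlx1 stood at 6.17, 7.33 and 7.3 FPKM. In replicates 2, 4 and 6 it stood at 16, 16.5 and 14.3. That the sets are separate in this gene follows from its choice by r.

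**Figure D4:**
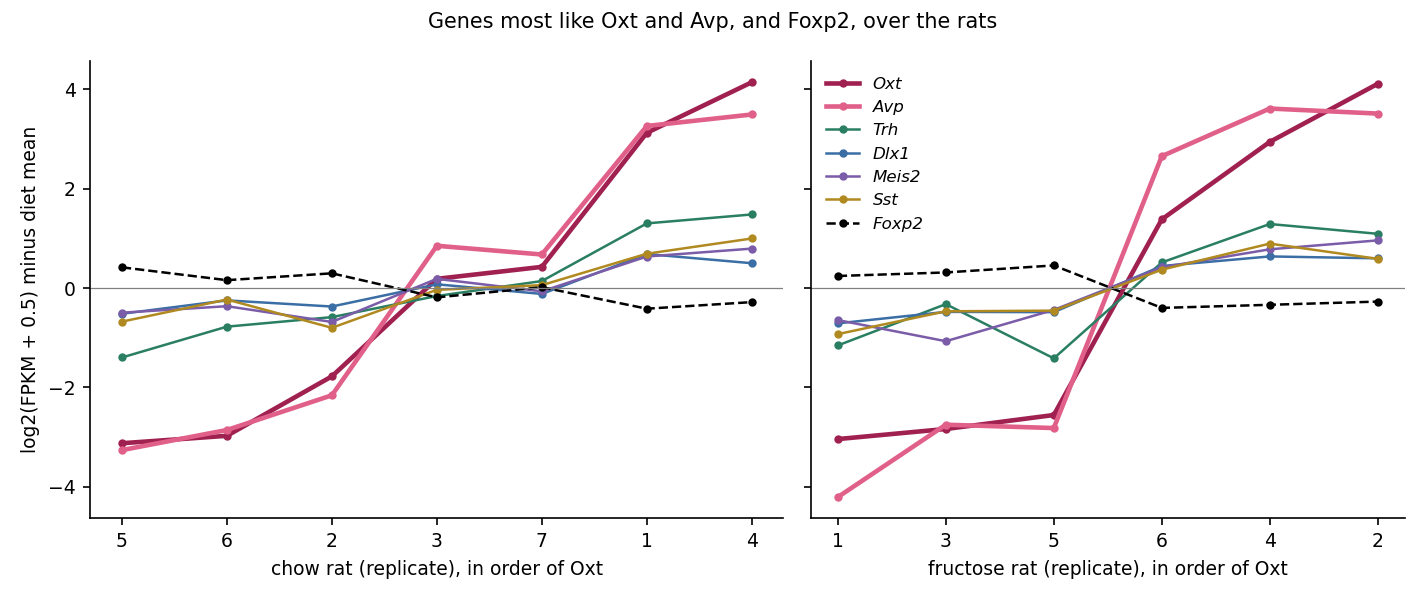
Log2(FPKM + 0.5) minus the diet mean for Oxt, Avp, the 4 genes most like both and Foxp2, with rats of each diet in order of their Oxt level. The lines rise together from left to right, steepest for Oxt and Avp, and the dashed line of Foxp2 falls.

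The highest r of each receptor lay below those of the peptides, while the lowest r of Avpr1a, at -0.96, was as far from 0 as that of Trh with Oxt. The highest r with Oxtr was 0.88, for Pomt1, a protein glycosylation enzyme, and 22.4% of genes had a lower highest r. Next came the serotonin receptor Htr1a (0.86), Rps6ka6 (0.86), Alg9 (0.86) and Samd14 (0.85), with Dctd (-0.88) and Tdrd3 (-0.87) most opposite. In chow replicate 7, whose Oxtr is listed at 0, Pomt1 (9.66 FPKM) and the genes next to it were at their lowest on chow. Dctd (5.54 FPKM) and Tdrd3 were at their highest on chow in that rat. Pomt1 had r = 0.98 on chow and 0.54 on fructose, and from 0.77 to 0.95 with 1 rat left out. Among the highest with Avpr1a were Mnt (0.90), Elfn1 (0.89), Eci3 (0.89) and the glutamate receptor subunit Grik5 (0.87), and the lowest Zfp51 (-0.96) and Rfc1 (-0.93).

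Tissue markers were set beside the peptides within each diet, in 20 relations of which 0 passed at an adjusted p under 0.05, while 5 did at an unadjusted p under 0.05. On chow, the level of 4 transcription factor genes of the magnocellular and paraventricular region (Sim1, Otp, Pou3f2 and Arnt2) had r = 0.90 with Oxt (exact permutation p = 0.00774, adjusted p = 0.0516) and 0.88 with Avp (exact permutation p = 0.00337, adjusted p = 0.0516). Spearman's rho was 0.89 and 0.93 (exact permutation p = 0.0123 and 0.00675, adjusted p = 0.123 for both), and r was 0.79 and 0.78 without the 2 farthest rats. Otp, a homeobox factor needed for these neurons, had the highest r of the 4 over all rats (0.85 with each peptide), at 0.957 to 8.15 FPKM on chow and 0.998 to 5.09 on fructose. The summed FPKM of the 4 ran from 45.8 to 77.8 on chow and from 50.8 to 70.3 on fructose, and 0 of them were at 0 in all rats. On fructose the level was 2.78, 3.16 and 2.42 in replicates 1, 3 and 5 and 3.22, 3.16 and 3.16 in replicates 2, 4 and 6, so here the sets met.

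The thalamus list had a negative r with both peptides in each diet. On chow it was -0.29 with Oxt and -0.35 with Avp (exact permutation p = 0.539 and 0.453, adjusted p = 0.571 for both, rho = 0.00 and -0.11), and without the 2 farthest rats 0.42 and 0.40. On fructose it was -0.96 (exact permutation p = 0.00694, adjusted p = 0.0516) and -0.92 (exact permutation p = 0.0319, adjusted p = 0.16), values that rest on the gap between the 2 sets of rats. The 3 fructose rats with little Oxt and Avp had thalamus levels of 3.87, 3.82 and 4.24, and the other 3 had 2.26, 2.87 and 3.00, so the sets did not overlap in this list either. Summed over 12 genes, the list ran from 243 to 930.3 FPKM on chow and from 76.8 to 449 on fructose, with 0 members at 0 in all rats. The difference between diets in this relation was not tested. Of the suprachiasmatic list, 5 of 8 genes were tested, 1 (Prok2) was at 0 in all rats, and the sum ran from 29.5 to 96.3 FPKM on chow and from 19 to 35.3 on fructose. Its r on chow was 0.49 with Oxt and 0.41 with Avp (exact permutation p = 0.251 and 0.346, adjusted p = 0.557 and 0.571). These turned to -0.26 and -0.33 without the 2 farthest rats, fell to 0.07 and 0.05 without chow replicate 4 and stood at 0.81 and 0.74 without chow replicate 1. On fructose, replicates 1, 3 and 5 had suprachiasmatic levels of 2.62, 2.47 and 2.59, above the 2.26, 2.22 and 2.07 of replicates 2, 4 and 6 (r = -0.82 with Oxt and -0.92 with Avp, again over separate sets). Midbrain dopamine and blood markers had r between -0.41 and -0.29 with the peptides on chow (exact permutation, adjusted p = 0.571 for each). The part of tissue content in the range of Oxt and Avp was not tested.

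Genes of the wider oxytocin and vasopressin pathway were taken from 7 lists of 76 symbols, of which 69 were tested. Of these, 1 was higher on fructose, 6 were lower and 62 did not pass (limma adjusted p under 0.05). The share called was 10.1%, beside 3.94% of all genes tested. At an unadjusted p under 0.05 limma found 17 of the 69, beside 2269 of all 11837 (19.2%). The median log2 fold change was -0.06, beside 0.00 over all genes. In 2 of the 69, Vgf and Adcyap1, the diets did not overlap, beside 190 of all 11837 genes tested (1.61%). Tissue markers moved with diet as well, those of the thalamus, midbrain and blood as given above. Mammillary markers had a level of 1.19 ± 0.48 (SD) on chow and 2.22 ± 0.30 on fructose, lateral hypothalamic markers 7.99 ± 0.19 and 7.32 ± 0.37, and meningeal markers 1.72 ± 0.18 and 2.52 ± 0.49. Their part in the pathway changes that follow was not tested.

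Among 10 genes of prohormone processing and granules, 2 fell, 0 rose and 8 did not pass. Pcsk2, a convertase that cuts peptide precursors, fell from 129.6 ± 31.8 FPKM (SD, n = 7) to 85 ± 13.8 (SD, n = 6), by 0.59 on the log2 scale (SE 0.14, limma adjusted p = 0.0389). Vgf, a granule protein, fell from 43.5 ± 6.22 to 33.8 ± 2.03 FPKM (-0.35 ± 0.08, limma adjusted p = 0.0346). Other granule genes, such as Scg2 (-0.09 ± 0.10) and Chga (0.12 ± 0.06), did not pass.

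Of 12 peptides and enzymes found in magnocellular neurons, 1 rose and 11 did not pass. Adcyap1, the precursor of the peptide PACAP, rose from 16.8 ± 6.65 to 32.2 ± 4.73 FPKM (1.02 ± 0.24, limma adjusted p = 0.0344). Cck, cholecystokinin, stood at 433 ± 191 FPKM on chow and 197 ± 133 on fructose (-1.30 ± 0.44, limma adjusted p = 0.117). Pdyn, prodynorphin, which vasopressin neurons hold, did not differ beyond the spread (-0.35 ± 0.31, limma adjusted p = 0.606), and had r = 0.86 with Oxt and 0.93 with Avp over the 13 rats. For Gal, galanin, r was 0.79 and 0.87, but for Cck it was -0.65 and -0.71 and for Apln, apelin, -0.61 and -0.61. Over the 12 genes r ran from -0.65 to 0.96 with Oxt (median 0.55) and from -0.71 to 0.95 with Avp (median 0.52).

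Of 24 genes of Gq and calcium signalling downstream of the receptors, 3 fell and 21 did not pass. Rgs4, which shortens Gq signals, fell from 191 ± 55 to 84.1 ± 33.6 FPKM (-1.22 ± 0.24, limma adjusted p = 0.0205). Plcb4, a phospholipase C, fell from 54.7 ± 14 to 31.6 ± 9.37 FPKM (-0.79 ± 0.20, limma adjusted p = 0.0394), and Rgs2, a relative of Rgs4, from 48.5 ± 2.91 to 39.8 ± 4.8 FPKM (-0.29 ± 0.07, limma adjusted p = 0.0394). The Gq subunits themselves, Gnaq (-0.11 ± 0.16) and Gna11 (-0.16 ± 0.11), did not pass.

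Of 11 osmotic and hormonal input genes, 1 fell and 10 did not pass. Rasd1, a small G protein induced by glucocorticoids, fell from 43.5 ± 12.7 to 22.5 ± 9.82 FPKM (-0.98 ± 0.24, limma adjusted p = 0.0389). Trpv1, a cation channel linked to osmosensing, stood at 1.74 ± 0.374 on chow and 2.3 ± 0.296 on fructose (0.33 ± 0.12, limma adjusted p = 0.134). Limma called 0 of 6 transcription factor genes of magnocellular neurons and 0 of 5 genes for peptidases and release, beside 3.94% of all genes. At an unadjusted p under 0.05 it found 2 and 1, beside 19.2% of all genes. The lowest p were those of Pou3f2 (0.23 ± 0.10, limma adjusted p = 0.235) and Arnt2 (0.21 ± 0.09, 0.249), and of the peptidase Mme (0.33 ± 0.15, 0.254) and Cd38 (0.21 ± 0.10, 0.283), an enzyme tied to oxytocin release. Of the other vasopressin receptors Avpr1b was listed at 0 in all rats, and Avpr2, the kidney type receptor, stood at 2.38 ± 0.452 and 2.35 ± 0.695 FPKM (-0.04 ± 0.17, limma adjusted p = 0.931).

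The 7 calls among pathway genes depended on single rats. They came to 0 without fructose replicate 4, where limma found 19 at an unadjusted p under 0.05. Of the pathway calls, Rgs4 alone was left when chow replicate 2, 4 or 7 was omitted, and likewise for fructose replicate 2 or 6. Those fits called 89, 103, 153, 147 and 113 over all genes. Pathway calls came to 3 without chow replicate 5 (187 over all genes) and to 4 without chow replicate 3 (304) or fructose replicate 3 (337). They came to 11 without chow replicate 1 (859). Rgs4 was called in 12 of 13 such fits, Vgf and Adcyap1 in 6, Pcsk2, Rasd1 and Plcb4 in 5, and Rgs2 in 2. By the exact permutation test adjusted over all genes, 0 of the 7 passed, as 0 of all genes did. The smallest p that this test can give is 5.83e-04. Over 11837 genes a gene could pass only if many genes reached that value, so this result cannot decide on single genes. Unadjusted, that test gave 14 of the 69 pathway genes a p under 0.05, beside 2223 of all 11837.

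**Figure D5:**
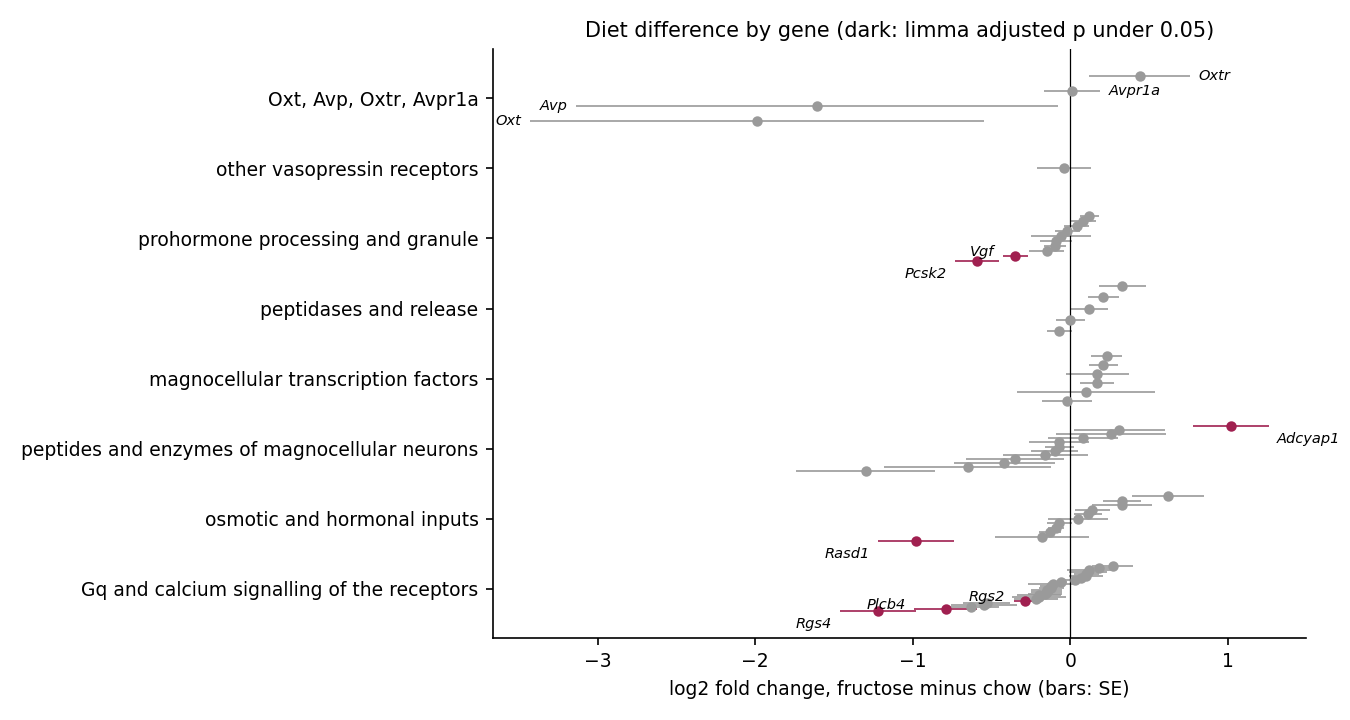
Log2 fold change, fructose minus chow, with SE for the 4 genes and the 69 tested genes of the pathway lists, dark where the limma adjusted p was under 0.05. The 7 dark points lie within 1.22 log2 units of 0, nearer than Oxt (-1.99) and Avp (-1.61), whose bars are the widest.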

How the data were processed

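RNA of whole hypothalamus from 7 chow and 6 fructose rats was sequenced, per the labels' protocols. The authors deposited FPKM in 1 table, with 1 column per rat matched by name. STAR 2.3.0e, Cufflinks 2.1.1, Cuffdiff and build rn5 are named in the submitters' processing notes. Library depth, batch and further settings were not given. Rats were housed in pairs and the cages are not named, so p-values treat rats as independent.

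For the comparison, limma 3.58.1 (R 4.3.3) was run on log2(FPKM + 0.5) for the 11837 genes whose mean reached 0.5 FPKM, with an empirical Bayes trend and two-sided p-values adjusted by Benjamini-Hochberg over all of them, called under 0.05. Single values were compared by exact permutation over the 1716 splits of the rats, correlations by permuted pairings, and neighbours in level by exact sign flips, a test chosen after seeing the data. Replicates were numbered in accession order. The genes named are the 4 members, each called pathway gene, the 2 per list with the smallest p, and the 5 most and 2 least like each member, leaving out predicted symbols and joined rows, and 1 gene like Avpr1a is not reported here. Other list members, Pmch and Mir3567 were named after their values were seen. Members, lists and tests were chosen with earlier results of these data known. The limma procedure was run on simulated data with noise drawn independently for each gene, so that run does not cover variation shared between genes. Alternatives covered the pseudocount (0.1, 1), the filter (none, 2 FPKM), scaling (median-ratio, quantile), array weights, robust empirical Bayes, permutation per gene, unlogged FPKM, both diets together and each rat left out. Those on the rank of the spread and on genes of like pattern were chosen after seeing the data.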

Additional observations from a re-analysis of the deposited data

Results flagged for a closer look

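Within groups of 7 and 6 rats, 6 values among 76 sets of values lay farther from the others than the Dixon criterion at 95% allows, where chance alone flags about 1 in 20 sets. Avpr1a was high in chow replicate 1, at 3.76 FPKM, and in fructose replicate 4, at 3.36 FPKM. Some genes most like Avpr1a were high in the same rats, which their selection favours. Eci3 stood at 5.65 and Grik5 at 48.8 FPKM in chow replicate 1, and Elfn1 at 10.001 FPKM in fructose replicate 4. Arnt2 was low in fructose replicate 5, at 38.3 FPKM. No value of Oxt, Avp or Oxtr was set apart in this way.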

How the results depend on the processing

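No paired analysis was possible because the replicate numbers only follow accession order. The direction and the call held for Oxt, Avp and Oxtr by diet under every alternative run, apart from a mean of at least 2 FPKM, which Oxtr did not reach, with log2 fold changes over the fits with 1 rat left out from -2.81 to -1.3, -2.33 to -0.77 and 0.21 to 0.56. Avpr1a ran from -0.09 to 0.12 and reversed with quantile normalization (-0.06). Calls over all genes came to 308 and pathway calls to 3 with no filter, to 0 and 0 by exact permutation per gene (2223 and 14 at an unadjusted p under 0.05), and over all genes to 1019 with array weights. With 1 rat left out they ran from 83 to 859 and from 0 to 11. Oxt with Avp on chow kept r from 0.99 to 0.99, with a larger adjusted p (exact permutation) in each such fit, over 0.05 in 3 of 7. With both diets together Oxt with Avp stood at 0.98 and the receptors at 0.75, past the threshold. On FPKM without a log, Oxt with Avpr1a on fructose was -0.09, and the difference of r between diets -0.112. With 1 fructose rat left out, Avpr1a ran from -0.54 to 0.86 with Oxt, from -0.31 to 0.82 with Avp and from -0.04 to 0.76 with Oxtr. Blood markers on fructose ran from -0.61 to 0.39 with Oxt and from -0.46 to 0.48 with Avp. On chow, thalamus markers ran from -0.48 to 0.15 and from -0.51 to 0.08, and dopamine markers from -0.5 to 0.02 and from -0.54 to 0.02. Avpr2 by diet ran from -0.13 to 0.1, at 0.00 without chow replicate 2 and 0.10 without fructose replicate 6. The cause of these shifts was not tested. Depth is unknown, so the precision of the low receptor values rests on the spread between rats.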

Other observations

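Regional markers of the hypothalamus differed in how they went with the peptides over the 13 rats, each gene centred on its diet mean. All 5 tested genes of the mammillary region had a negative r, from -0.65 to -0.43 with Oxt and from -0.63 to -0.40 with Avp. All 4 of the ventromedial nucleus had a positive r, from 0.23 to 0.70 and from 0.34 to 0.81, and so had the 5 of the arcuate nucleus, from 0.02 to 0.64 and from 0.09 to 0.67. Some of these genes lay near 0. The median was 0.217 FPKM on chow and 0.579 on fructose for Nr5a1, a ventromedial gene. For Kiss1, an arcuate gene, it was 0 and 0.917. Of the lateral hypothalamus, Hcrt, the orexin precursor, had r = 0.82 with Oxt and 0.87 with Avp, and Lhx9, a homeobox factor, -0.57 and -0.59. Six3, a forebrain homeobox factor in the suprachiasmatic list, had 0.78 and 0.75, while Vip, a peptide of the same list, had -0.46 and -0.51. Among general cell types, all 5 oligodendrocyte genes had a negative r, from -0.43 to -0.21 with Oxt and from -0.49 to -0.23 with Avp. With Oxt, r ran from -0.44 to 0.05 for neurons, from -0.19 to 0.45 for astrocytes, from -0.47 to 0.02 for endothelium and from -0.21 to 0.13 for microglia. These values share their libraries and are descriptions.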
